A study of Mus musculus with 6 samples.

Results

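The core circadian clock of the liver was followed through 10 genes on 6 Affymetrix mouse expression arrays. The genes were chosen by name as the activators and repressors of the clock loop, and every probe set of the array that carried one of these symbols alone was taken. They are Arntl, Clock, Npas2, Per1, Per2, Per3, Cry1, Cry2, Nr1d1 and Nr1d2, with 23 probe sets of 34945 that have a single gene symbol. The livers came from male mice aged 8 weeks, of mixed background, kept on 12 h of light and 12 h of dark with standard chow and then fasted for 24 h. All 6 shared that fast. By genotype, 3 were Mig-6 f/f and 3 were Mig-6 d/d, symbols usually written for a floxed and a deleted allele and not spelled out in the labels. Errfi1 encodes Mig-6, which restrains signalling by EGFR and its relatives. The labels name no promoter or cell type that drives a deletion and give the light cycle but no hour of collection, so the genotype and a difference in hour between the groups cannot be told apart. Whether the arrays come from different mice is not stated either, and p-values then describe only how these samples spread.

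The clock is a feedback loop of transcription. BMAL1, the product of Arntl, pairs with CLOCK or with its relative NPAS2 and binds E-boxes, which drives the Per, Cry and Nr1d genes and output genes such as Dbp. PER and CRY proteins then block that pair, while the Nr1d proteins, known as REV-ERBs, repress Arntl through ROR elements, so that in mouse liver Arntl peaks when the Nr1d genes and Dbp are near their trough.

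Letter matches to motifs known from this loop are shown for the genes whose values follow, with no binding measured, in RefSeq promoter windows of GRCm38.p6 that run from 250 bases before to 50 bases after an annotated start. Windows were found for 9 of the 10 genes and not for Per2. Searched on both strands were the E-box CACGTG (in 7.15% of all 32851 windows), its variant CACGTT (4.68%), the D-box TTATGNAA (3.38%), which Dbp and its relatives bind, and the ROR core TAGGTCA (2.61%), and no match overlapped another. The E-box was found in Per1 and Cry1, the variant in Cry1, Cry2 and Nr1d1, the D-box in Per1 and Per3 and the ROR core in Arntl. The ROR core was also found in Nfil3 and the E-box in Tef, output genes described with them further on. Windows of Clock, Npas2 and Nr1d2, and of the output genes Dbp and Hlf, held none of the 4, which says only that these letters are not there. Matches are in capitals and read 5′ to 3′ on the gene's strand, so a match on the other strand appears as its reverse complement, as in Nr1d1 and Nfil3. Per1 is given as the 250 bases before a start (chr11:69098699-69098948, plus strand), with its E-box from position -166 and its D-box from -24. The others are sites of 30 bases, for Arntl chr7:113207530-113207559, plus strand, for Nfil3 chr13:52981033-52981062, minus strand, for Cry1 chr10:85185097-85185126, minus strand, for Nr1d1 chr11:98775388-98775417, minus strand, and for Per3 chr4:151044852-151044881, minus strand.
Per1: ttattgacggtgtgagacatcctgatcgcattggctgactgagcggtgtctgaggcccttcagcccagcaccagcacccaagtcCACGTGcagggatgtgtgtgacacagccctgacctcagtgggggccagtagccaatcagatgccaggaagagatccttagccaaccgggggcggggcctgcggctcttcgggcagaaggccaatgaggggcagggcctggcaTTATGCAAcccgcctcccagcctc
Arntl: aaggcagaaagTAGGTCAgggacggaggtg
Nfil3: gcgctcggaacTGACCTActaacacacatc
Cry1: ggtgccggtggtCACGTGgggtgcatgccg
Nr1d1: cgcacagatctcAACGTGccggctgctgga
Per3: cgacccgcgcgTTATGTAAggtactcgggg

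Errfi1 bore out the labels. Its deposited intensity was 5371, 5424 and 5686 in f/f and 68.1, 61.8 and 59.7 in d/d, so that d/d lay lower by a log2 difference of -6.10 ± 0.10 (adjusted p = 4.91e-08, limma with Benjamini-Hochberg adjustment). Every difference subtracts f/f from d/d after quantile normalization of log2(intensity + 16), is followed by its standard error in limma with n = 3 per group, and is too small for dim genes because of the added 16. Array medians lay between 55.6 and 65.4. Replicate 3 of f/f differed from the other arrays, with 18S ribosomal RNA controls 8.36 times those of the next array and a mean correlation with the others of 0.952, where theirs were from 0.974 to 0.978, so values without it are given beside those it moves by over 1.5 times or across the threshold, and for others in the plot of both. Hepatocyte markers summed to between 112479 and 115346 in f/f and between 113062 and 114550 in d/d. Bright ones such as Alb (means of 33895 in f/f and 35387 in d/d) weigh most in that sum. Of the 6 markers, only Tat had an unadjusted p under 0.05 in limma, and it lay lower in d/d (-0.39 ± 0.15).

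None of the core clock genes passed the threshold, though 3 of them, Arntl, Per2 and Nr1d2, had groups that did not overlap. Arntl lay lower in d/d, and Per2 and Nr1d2 lay higher. Of the 9 genes bright enough to be tested, 0 had an adjusted p under 0.05 (limma with Benjamini-Hochberg adjustment), where 0.0948% of the 13718 genes tested did. An unadjusted p under 0.05 was reached by 3 of the 9, beside 7.84% of all genes, with 1 of the 9 lower (3.07% of all genes) and 2 higher (4.77%). Groups did not overlap for the same 3 of the 9, beside 14.7% of all genes, again with 1 lower (6.79%) and 2 higher (7.90%). The median log2 difference of the 9 was -0.039 and that of all genes -0.015. The median size was 0.16 against 0.11. Without f/f replicate 3, 1 of the 9, Arntl, passed (adjusted p = 0.049, limma with Benjamini-Hochberg adjustment), where 0.664% of all genes did, and 4 of the 9 had an unadjusted p under 0.05, beside 11.2%.

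**Figure D1:**
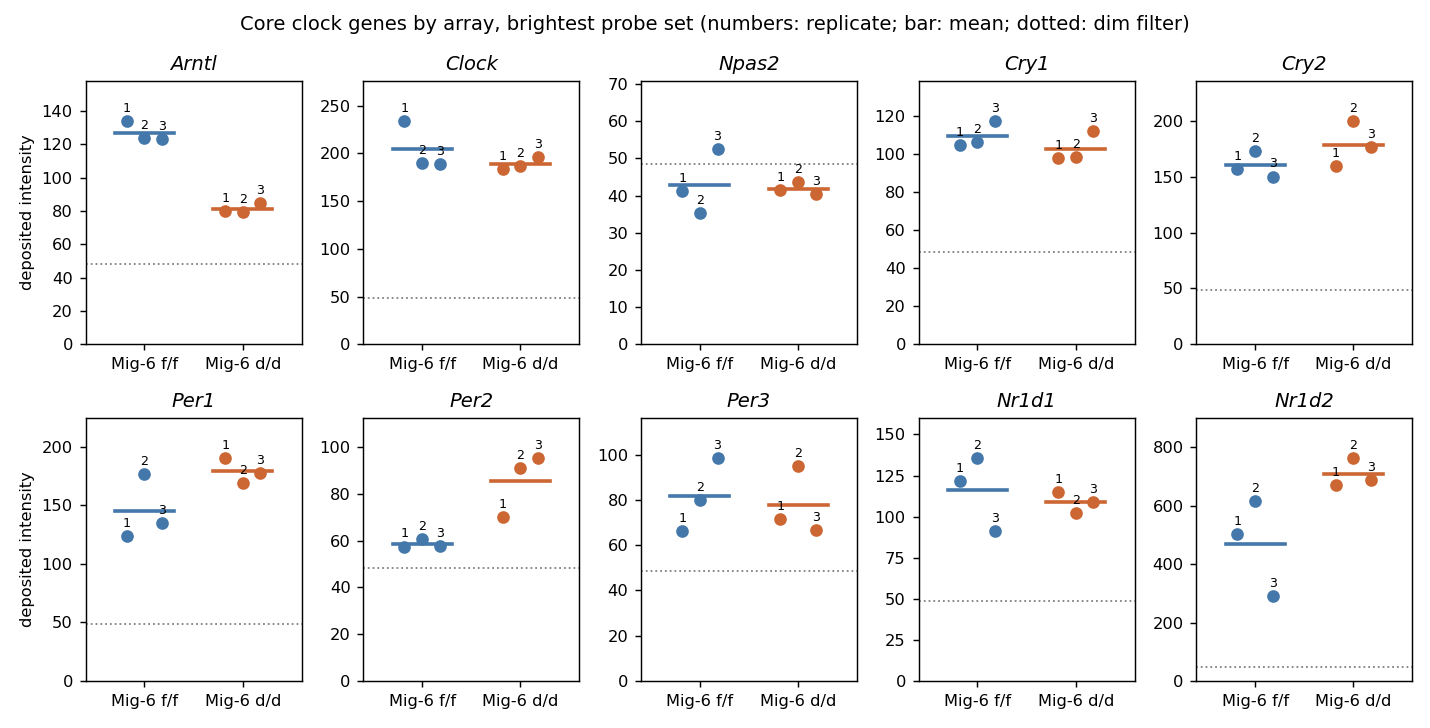
Deposited intensity (linear, from 0) of the brightest probe set of each core clock gene on each array, by genotype. Points are arrays, numbered by replicate, bars are group means, and the dotted line is the intensity of 48.3 under which probe sets counted as dim. The Arntl arrays separate downward in d/d and those of Per2 and Nr1d2 upward, while the other 7 genes overlap.

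Arntl encodes the activator shared by all forms of the loop. Its brighter probe set read 134, 124 and 123 in the f/f arrays and 80.1, 79.4 and 84.6 in the d/d arrays. Every d/d array lay below every f/f array, and the spread within each genotype was small, with SDs of 6.04 and 2.84 around means of 127 and 81.4 (n = 3 each). The log2 difference was -0.53 ± 0.12, or 1.45 times lower (limma, Benjamini-Hochberg adjusted p = 0.2, 95% interval -0.80 to -0.27). It was -0.61 ± 0.10 without f/f replicate 3, and over all alternatives limma gave Benjamini-Hochberg adjusted p from 0.0160 to 0.733. The other probe set of Arntl, which passed the dim filter, read 41.4, 47.1 and 68.8 in f/f and 47.7, 53.4 and 41.1 in d/d, with overlapping groups and a difference of -0.075 ± 0.13. Averaging both gave -0.30.

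Clock encodes the partner of BMAL1, and its groups overlapped. The brightest of its 4 probe sets read 234, 190 and 189 in f/f and 184, 187 and 196 in d/d. The f/f array of replicate 1 was the highest and the other 5 lay within a narrow band. The difference was -0.088 ± 0.12 (95% interval -0.37 to 0.20), and the 4 probe sets ranged from -0.088 to 0.13. It was -0.17 without f/f replicate 3, and the average of the probe sets had the opposite sign (0.0076). Npas2, which can stand in for Clock, was under the dim filter in both of its probe sets and was not tested among the genes. The brighter one read 41.2, 35.2 and 52.5 in f/f and 41.4, 43.5 and 40.3 in d/d, with a difference of -0.0012 ± 0.11 in the fit over all probe sets.

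Among the Period genes, which encode the repressors that pair with CRY, Per2 was the one with separate groups. Its brightest probe set read 57.5, 60.6 and 57.7 in f/f and 70.2, 91.2 and 95.4 in d/d. All 3 d/d arrays lay above the f/f arrays, and the d/d arrays spread more widely, with an SD of 13.5 against 1.72. The log2 difference was 0.45 ± 0.14, or 1.37 times higher (limma, Benjamini-Hochberg adjusted p = 0.39, 95% interval 0.14 to 0.76), and 0.39 ± 0.13 without f/f replicate 3. Its other probe sets also had positive differences. One read 41.8, 42.0 and 41.9 in f/f and 46.0, 63.3 and 78.4 in d/d (0.44 ± 0.17), with groups apart, and it passed the dim filter of 48.3 through the d/d arrays. The other read 44.2, 54.4 and 74.3 in f/f and 82.1, 75.8 and 58.9 in d/d (0.29 ± 0.14), with groups that overlapped.

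Per1, the member of the family that hormones and cAMP induce most quickly, had 1 probe set, at 124, 177 and 135 in f/f and 190, 169 and 177 in d/d. The f/f array of replicate 2 reached into the d/d range. The difference was 0.31 ± 0.15 (limma, Benjamini-Hochberg adjusted p = 0.689, 95% interval -0.034 to 0.65), and leaving out an f/f array gave 0.46 (replicate 2) or 0.22 (replicate 3). Per3 had 6 probe sets, of which 4 passed the dim filter. The differences of all 6 ran from -0.094, on a probe set under the filter, to 0.12. The brightest read 66.1, 80.0 and 98.5 in f/f and 71.3, 94.99 and 66.5 in d/d. The groups covered nearly the same range, and the difference was -0.039 ± 0.14 (95% interval -0.35 to 0.27), with the opposite sign without f/f replicate 3 (0.028). In the annotation Per3 overlaps Uts2, and signals of the pair were not told apart here.

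**Figure D2:**
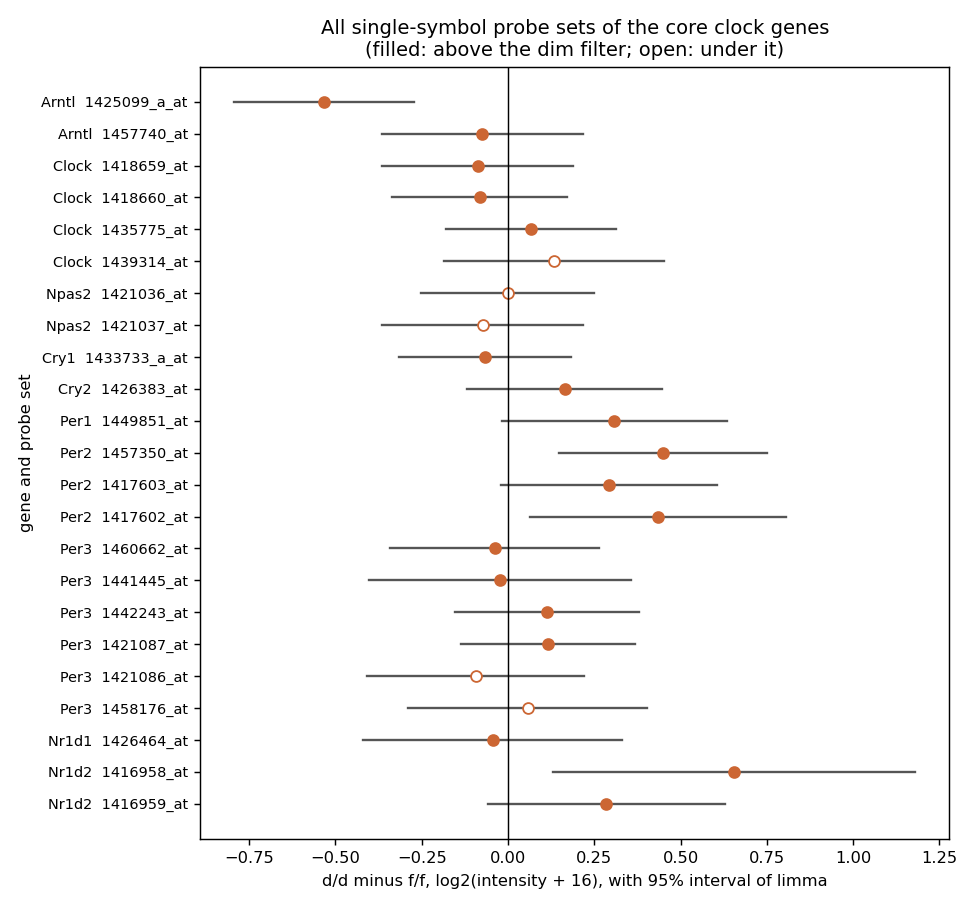
Log2 difference, d/d minus f/f, of all 23 probe sets of the core clock genes with 95% intervals of limma, filled where the probe set passed the dim filter and open where it did not. The 3 probe sets of Per2 and both of Nr1d2 lie to the right of 0, and the brighter Arntl probe set is the one whose interval lies wholly to the left.

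Over all probe sets of the array, fitted together, 0 of the 23 had an adjusted p under 0.05 (limma with Benjamini-Hochberg adjustment), where 0.0744% of probe sets did. An unadjusted p under 0.05 was found for 4 of the 23, beside 6.81%, and separate groups for 5, beside 13.1%. These 5 were 1 of Arntl, 2 of Per2 and both of Nr1d2. Probe sets of 1 gene share its RNA and are no replicates.

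The cryptochromes, which carry much of the repression, did not differ beyond the spread between arrays. Cry1 read 105, 107 and 118 in f/f and 98.0, 98.5 and 112 in d/d. The groups overlapped, and the difference was -0.067 ± 0.11 (95% interval -0.32 to 0.18). Cry2 read 157, 174 and 150 in f/f and 160, 200 and 177 in d/d, again with overlap, and its difference was 0.16 ± 0.13 (95% interval -0.13 to 0.45), or 0.084 without f/f replicate 3.

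The REV-ERB genes gave unlike values. Nr1d2 read 504, 615 and 290 in f/f and 670, 764 and 690.0 in d/d on its brighter probe set. The d/d arrays lay above all f/f arrays, and f/f replicate 3 lay far below the other f/f arrays. The log2 difference was 0.66 ± 0.25, or 1.57 times higher (limma, Benjamini-Hochberg adjusted p = 0.552, 95% interval 0.091 to 1.22), and 0.34 ± 0.12 without f/f replicate 3. The dimmer probe set read 81.4, 76.3 and 57.4 in f/f and 86.4, 92.5 and 87.8 in d/d, also without overlap (0.28 ± 0.15). Nr1d1, which is known to swing more widely over the day, read 122, 136 and 91.3 in f/f and 115, 102 and 109 in d/d. The d/d arrays fell between the f/f arrays, and the difference was -0.045 ± 0.17 (95% interval -0.44 to 0.35). Leaving out f/f replicate 3 gave -0.24 ± 0.10, and leaving out f/f replicate 2 gave 0.084. Nr1d1 overlaps Thra in the annotation, and signals of the pair were not told apart here. Arntl, Clock, Per2 and Cry2 overlap long noncoding RNA genes there, and Clock and Npas2 overlap pseudogenes. Their signals were not told apart either.

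Read array by array, the deviation of each gene from its mean over the 6 arrays showed how the arrays of 1 genotype differed among themselves. Arntl deviated by 0.39, 0.28 and 0.13 in f/f replicates 1, 2 and 3 and by -0.30, -0.34 and -0.16 in the d/d replicates. Nr1d2 deviated by -0.15, 0.12 and -0.95 in f/f and by 0.27, 0.43 and 0.29 in d/d. The d/d arrays thus shared low Arntl and high Nr1d2, whereas among the f/f arrays Arntl was high on all 3 and Nr1d2 was scattered. In normalized values, array f/f replicate 3 was the lowest of the 6 for 6 of the 9 genes tested, beside 32.4% of all genes. It was the highest for 0 of the 9, beside 33.2% of all genes. In deposited intensities that array was the highest for Cry1 and Per3. There it was the lowest for Cry2, Nr1d1 and Nr1d2 but not for Clock, Per1 or Per2. The residual SD of Nr1d2 was 0.40, at percentile 95.7 among all genes, and that of Nr1d1 0.25, at percentile 79.3. Arntl (0.11) and Cry1 (0.096) lay at percentiles 26.0 and 17.3. These are from all 6 arrays. Without f/f replicate 3 the standard error of the difference went from 0.25 to 0.12 for Nr1d2 and from 0.17 to 0.10 for Nr1d1.

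**Figure D3:**
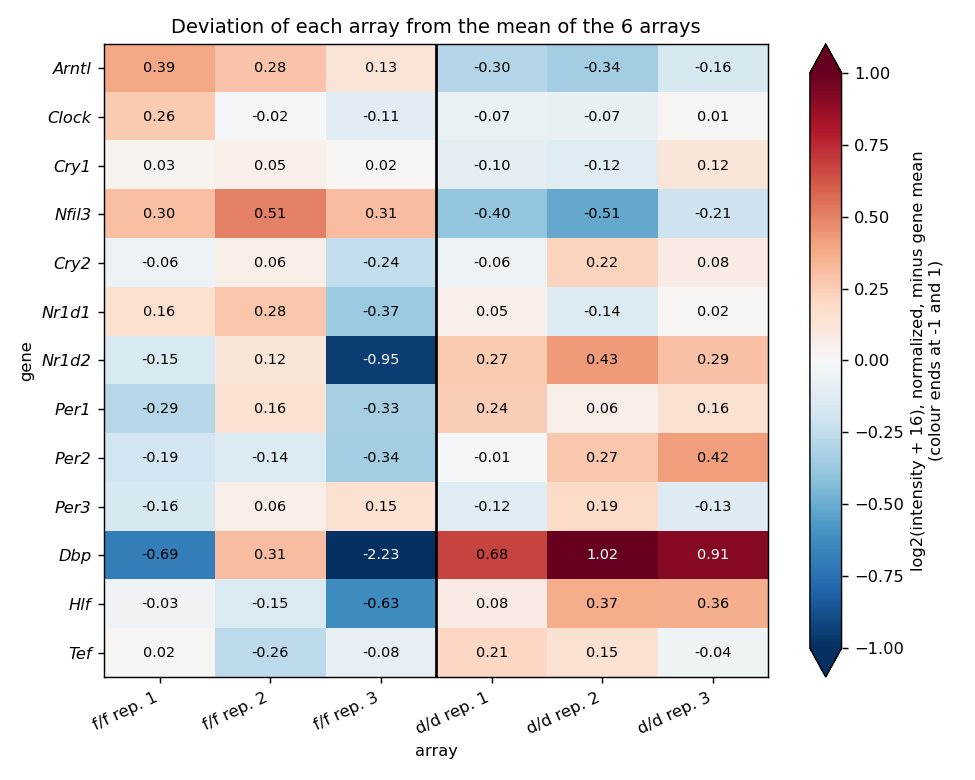
Normalized log2(intensity + 16) of each array minus the mean of the 6 arrays, for the 9 core clock genes tested and the PAR bZIP output genes Dbp, Hlf and Tef with their repressor Nfil3; the colour ends at -1 and 1 and the cells print the values. Arntl and Nfil3 are positive on the f/f arrays and negative on the d/d arrays, Nr1d2 and Dbp are positive on the d/d arrays, and f/f replicate 3 has the lowest values for Dbp (-2.23) and Nr1d2 (-0.95).

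The first outputs of the loop are Dbp, Tef and Hlf, activators that bind D-boxes, and Nfil3, which represses through the same site and is itself a target of the REV-ERBs. All 4 were tested and 0 passed. An unadjusted p under 0.05 and separate groups were found for Dbp and Hlf as higher and for Nfil3 as lower, beside 7.84% and 14.7% of all genes. Nfil3 read 163, 191 and 176 in f/f and 96.3, 90.5 and 108 in d/d. Both groups were tight and apart, with a log2 difference of -0.74 ± 0.12 (limma, Benjamini-Hochberg adjusted p = 0.103), and without f/f replicate 3 it passed (-0.78, adjusted p = 0.0411, with 0.00906 to 0.527 over all alternatives). Dbp read 266, 556 and 90.7 in f/f and 707, 922 and 835 in d/d. The d/d arrays all lay above the f/f arrays, which were widely scattered (residual SD at percentile 99.8 of all genes), and the difference was 1.74 ± 0.53 (limma, Benjamini-Hochberg adjusted p = 0.39) or 1.06 ± 0.25 without f/f replicate 3. Its other probe set had 1.13. Hlf had 0.54 ± 0.17 (0.37 without f/f replicate 3) and Tef 0.22 ± 0.12 (limma, Benjamini-Hochberg adjusted p = 0.421 and 0.755), with Tef probe sets from -0.37 to 0.22.

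Among other factors, kinases and ubiquitin ligases that act on the loop, 14 were tested and 0 passed. An unadjusted p under 0.05 was found for 1 of the 14 (7.84% of all genes) and separate groups for 2 (14.7% of all genes), shares near those of all genes. The median difference was 0.099 and the median size 0.13, against 0.11 for all genes. Rora, which opposes the REV-ERBs at ROR elements, had 0.13 ± 0.11 with groups apart (0.062 without f/f replicate 3). Other probe sets of Rora ran from -0.0084 to 0.40. Bhlhe40 and Bhlhe41, repressors that compete for E-boxes, had 0.53 ± 0.33 and -0.20 ± 0.20, and Ciart, another repressor of the BMAL1 and CLOCK pair, 0.20 ± 0.31. Bhlhe41 and Ciart had the opposite sign without f/f replicate 3 (0.012 and -0.032), and Bhlhe40 had 0.28. Gsk3b, a kinase that acts on several clock proteins, had 0.36 ± 0.13 on the probe set used, where others of the gene went down to -0.035.

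Among 12 liver genes commonly listed as rhythmic, 0 passed, while 6 had an unadjusted p under 0.05, beside 7.84% of all genes, 3 of them higher and 3 lower. The same 6 had separate groups, beside 14.7%. Higher were Usp2, a deubiquitinase (0.55 ± 0.16), Alas1, the first enzyme of heme synthesis (0.63 ± 0.19), and Noct, known as nocturnin (0.51 ± 0.17). Lower were Avpr1a, a vasopressin receptor (-0.59 ± 0.12), Cyp7a1, the rate-limiting enzyme of bile acid synthesis (-1.01 ± 0.22), and Cdkn1a, a cell cycle inhibitor (-0.88 ± 0.29). Their adjusted p ran from 0.179 for Avpr1a to 0.452 for Cdkn1a (limma with Benjamini-Hochberg adjustment). The other probe set of Avpr1a had -0.27. That probe set became the brighter one, and so stood for the gene, without normalization (-0.30). It also did so with a common median (-0.28) and with a pseudocount of 1 (-0.30). The same held with f/f replicate 1, 2 or 3 left out (-0.26, -0.16 and -0.39). These lower values thus go with the change of probe set. Alas1 passed without f/f replicate 3 (0.82, adjusted p = 0.0458, limma with Benjamini-Hochberg adjustment). Cdkn1a had -0.52 without that array.

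Signals that reach the Per genes from outside the loop were read from 12 genes of the cAMP, glucocorticoid and temperature responses. Again 0 passed, 6 had an unadjusted p under 0.05, beside 7.84% of all genes, and the same 6 had separate groups, beside 14.7%. Higher were Hsph1 and Hsp90aa1, heat shock chaperones (0.80 ± 0.11 and 0.41 ± 0.12), and Tsc22d3, a glucocorticoid target known as GILZ (0.76 ± 0.12, but 0.34 as the mean of its probe sets). Lower were Zbtb16, a zinc finger factor also induced by glucocorticoids (-1.16 ± 0.24), Nr4a1, an orphan receptor induced by cAMP (-0.92 ± 0.25), and Tat, tyrosine aminotransferase (-0.39 ± 0.15, and -0.26 without f/f replicate 3). The glucocorticoid targets thus lay on both sides. Fkbp5, another of them, had -0.13 ± 0.15 (-0.024 without f/f replicate 3). Adjusted p ran from 0.0700 for Hsph1 to 0.562 for Tat (limma with Benjamini-Hochberg adjustment). Without f/f replicate 3, where 0.664% of all genes passed, Hsph1, Tsc22d3 and Zbtb16 did so (limma, Benjamini-Hochberg adjusted p = 0.0258, 0.0471 and 0.0405). Hspa1b of the same list passed there too (1.07, limma, Benjamini-Hochberg adjusted p = 0.0496). With all 6 arrays Hspa1b had 0.61 ± 0.36 and overlapping groups (limma, Benjamini-Hochberg adjusted p = 0.771). Its highest deposited intensity, 875, was on f/f replicate 3.

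**Figure D4:**
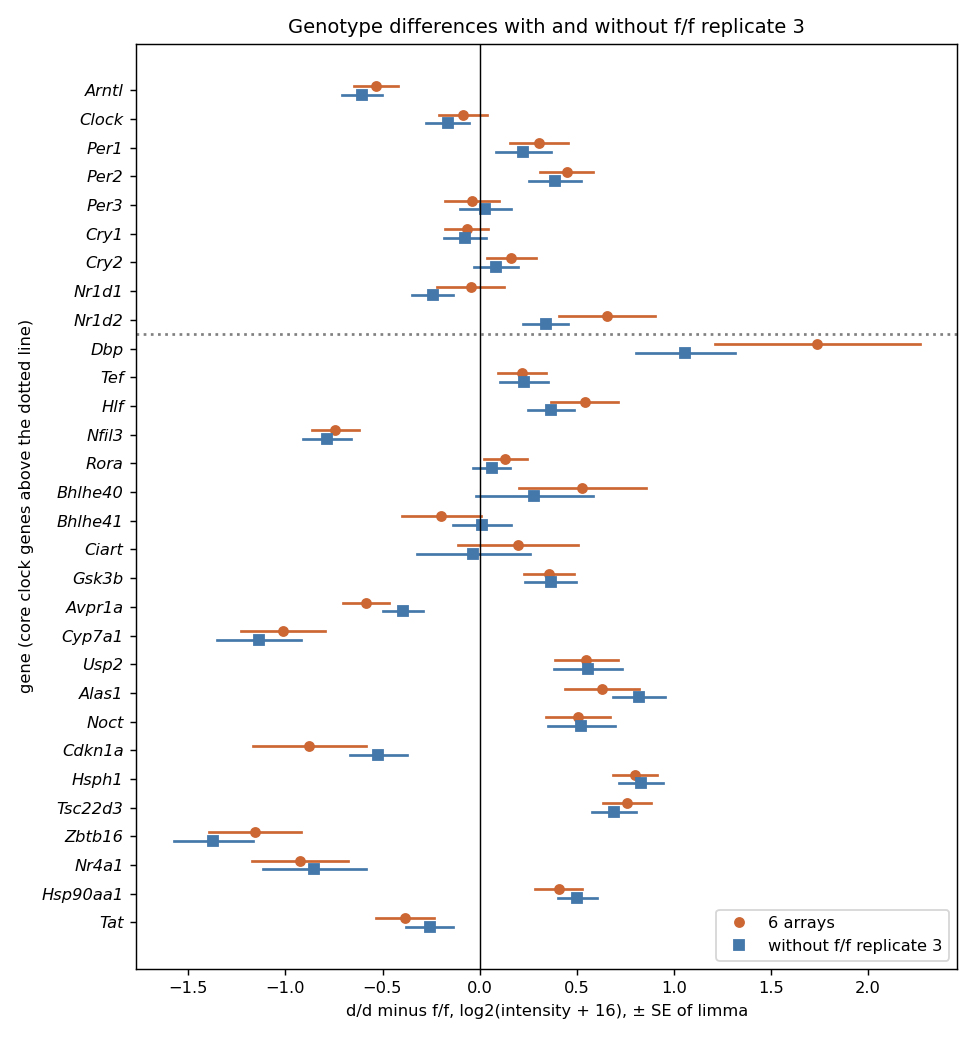
Log2 difference, d/d minus f/f, ± SE of limma for the 9 core clock genes tested (above the dotted line) and 21 other clock and input genes, from all 6 arrays (circles) and without f/f replicate 3 (squares). Dbp moves from 1.74 to 1.06 and Nr1d2 from 0.66 to 0.34, while Arntl (-0.53 and -0.61) and Nfil3 (-0.74 and -0.78) move little.

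Genes whose values over the 6 arrays were most like those of Arntl were Tmem120a, Ddc and Repin1, with Pearson r of 0.996, 0.995 and 0.995, and 186 genes had an r over 0.9. Those most like Nr1d1 were Ccdc32, Usp1 and Atpaf1, with 0.995, 0.993 and 0.991, and 431 genes had an r over 0.9. These describe 6 arrays that share the genotype contrast and the array that stood apart. Markers of other cell types were compared as summed intensities. Stellate cell markers, 4 of 6 lower, summed to between 2576 and 2812 in f/f and between 2026 and 2404 in d/d, without overlap. Dcn alone carried that separation: with it left out, a choice made after its values were seen, the other 5 summed to between 596 and 648 in f/f and between 560.5 and 617 in d/d. Kupffer cell markers, 5 of 6 lower, had from 1586 to 2223 and from 1416 to 1862. Endothelial markers (2 of 6 lower) had from 1102 to 1170 and from 1060 to 1267, lymphocyte markers (3 of 4 tested lower) from 285 to 462 and from 315 to 435, with the B cell marker Ms4a1 higher by 0.93 ± 0.19 and its groups apart, cholangiocyte markers (1 of 2) from 102 to 153 and from 115 to 123, and erythroid markers (2 of 3) from 859 to 998 and from 838 to 1014. The cholangiocyte markers Krt7, Krt19, Cftr and Spp1 were not tested. None of the markers tested passed the threshold or was listed at 0, and their part in the clock values was not tested. In whole liver, fewer cells of a type and less RNA per cell cannot be told apart.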

How the data were processed

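Biotin-labelled liver RNA was read on Affymetrix arrays, per the labels. The authors deposited linear intensity values of 45101 probe sets for each of 6 arrays; their summarization, background correction and scaling are not stated in those labels. Gene symbols came from the annotation of the array platform, and 932 probe sets with several symbols stayed out. Arrays were grouped by their titles. Array medians differed by 0.185 on the log2 scale, so log2(intensity + 16) was quantile normalized, and genotypes were compared in limma 3.58.1 (lmFit, eBayes; R 4.3.3). For each gene the probe set with the highest mean was used, those in the lowest 40% by mean (under 48.3) were left out, and Benjamini-Hochberg adjustment covered 13718 genes, threshold 0.05; a second fit held all 34945 single-symbol probe sets. The number of arrays limits the precision. In 10 simulated data sets with 200 of 13718 genes changed, 36.6% of genes changed 1.5-fold and 76.6% of those changed 2-fold were called. Those sets held changes up to 8-fold and no array that stood apart. They gave 162.2 called genes on average, where the real arrays gave 13, so these shares need not hold for the real arrays. The members, gene lists, motifs and tests were chosen with earlier results of these data known. Named are all members, Errfi1, up to 6 genes per list with an unadjusted p under 0.05, 9 clock genes whatever their p (1 of them not reported here), and the 3 genes most like Arntl and Nr1d1; Hspa1b and Fkbp5 were added after their values were seen. Alternatives were other scalings, pseudocounts, dim filters and variance models, the mean of probe sets, weights per array, a block for the replicate number, and each array left out. Figures were drawn with matplotlib 3.10.9.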

Additional observations from a re-analysis of the deposited data

How the results depend on the processing

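Of the members, 0 passed in every alternative except weights per array and leaving out f/f replicate 3. There Arntl made it 1 of 9, beside 1.57% and 0.664% of all genes (range 0 to 1 with each array left out). The weights gave f/f replicate 3 only 0.178, where the other arrays had from 0.963 to 1.84, so these alternatives are much alike. The other clock genes, 0 of 42 at first, came to 2 of 40 with the mean of probe sets, beside 0.153% of all genes. Array weights gave 8 of 42, beside 1.57%. With each array left out they ran from 0 to 6, the 6 of 42 being without f/f replicate 3, beside 0.664%. Genes called, 13 in all, were 21 with a trended, robust variance, 215 with array weights, and, with each array left out, ran from 4 (d/d replicate 1 left out) to 91 (f/f replicate 3 left out). Probe sets called, 26, were 12 with a pseudocount of 1, 208 with array weights and from 10 to 137 with each array left out. Same-numbered arrays did not deviate alike from their group means (correlations -0.0033, -0.14 and -0.47). Deviations within groups of 3 are tied to one another, so these values cannot show whether the samples were paired. The replicate block gave 6 genes, 13 probe sets and 0 members. Signs turned for Clock (0.0076) and Per3 (0.022) with the mean of probe sets, and for Per3 (0.0094), Bhlhe41 (0.018) and Ciart (-0.064) with array weights. With each array left out, Per3 ran from -0.15 to 0.028, Nr1d1 from -0.24 to 0.084, Bhlhe41 from -0.34 to 0.012 and Ciart from -0.032 to 0.59. Members with an unadjusted p under 0.05, 3 at first, ran from 2 to 4; that count was added after the data were seen. The causes were not tested.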
